A study of Mus musculus with 12 samples.

Results

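Autophagy genes were compared between the septum of lactating and virgin mice through 40 named genes that build, load and empty the autophagosome. The array's annotation gave a transcript cluster, a set of probes read as 1 transcribed region, for 39 of the 40 genes. The cargo receptor Optn had no cluster under that symbol and was not analysed here. The 39 genes have 43 clusters, since Atg2b, Atg4a, Map1lc3b and Gabarapl2 have 2 each, and the brighter cluster by the mean of all 12 arrays stands for each gene. The whole table has 35556 clusters and 19938 genes with a cluster of 1 symbol.

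The 6 lactating mice were taken on postpartum days 6 to 8 and the 6 virgin mice were matched to them for age, about 70 days. All 12 were females of a line bred from outbred hsd:ICR mice for high maternal aggression, and no group without that selection was included. Lactating mice had been housed with a male and virgin mice with other females before each was housed alone, so mating, pregnancy, pups and lactation separate the groups together. The virgin mice were in estrus or diestrus, and which mouse was in which stage is not given in the labels. The tissue is called septum in the sample names and lateral septum in the protocol. According to the study's methods, both the lateral and the medial septum were dissected and pooled for each mouse. Summed intensities of 11 septum markers were 17073 to 19314 in lactating and 16797 to 19069.6 in virgin mice, and those of 6 striatum markers were 17714 to 28405 and 23360.0 to 28017. The 6 markers of cortical and hippocampal excitatory neurons summed to 13667 to 20555 in lactating mice, with the highest value in lactating mouse 4, and to 13844 to 15972 in virgin mice. All 6 had a log2 difference, lactating minus virgin, above 0, with a median of 0.29. Of the 6 striatum markers, 5 had one below 0, with a median of −0.13. The mean log2 deviation of the cortical and hippocampal markers from their 12-array average ran from −0.72 in lactating mouse 1 to 1.25 in lactating mouse 4. In virgin mice it ran from −0.50 to 0.36, so the dissections differed in these cells. Of 7 microglia markers, limma put 2 lower and 0 higher in lactating mice at an unadjusted p under 0.05, 1 of the 2 being P2ry12, which the study selected on these arrays. By the same rule 4.83% of all genes were lower, and 1.8% of genes brighter than the median cluster. Of 7 choroid plexus and ependyma markers, 1 was higher and 1 lower. The neuron, astrocyte, oligodendrocyte, endothelium, striatum, cortical and hippocampal, and septum lists had 0 of either. The microglia markers summed to 4770.5 to 5024 in lactating and 4821 to 6614 in virgin mice, with the highest value in virgin mouse 6. The mean log2 deviation of these markers from their 12-array average was 0.30 in virgin mouse 6. It was −0.094 to −0.0016 in the other virgin mice and −0.091 to 0.026 in lactating mice. The part of these cells in the values of the autophagy genes was not tested. In bulk tissue, fewer cells of a type and less RNA per cell cannot be told apart.

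Autophagy encloses cytoplasm in a double membrane, the autophagosome, which then fuses with the lysosome so that its contents are digested. The Ulk1 kinase complex starts the process, a lipid kinase complex around Becn1 marks the membrane, Atg9 vesicles and lipid transfer by Atg2 let it grow, and a pair of ubiquitin-like conjugation systems attaches proteins of the Atg8 family to it. Cargo receptors hold cargo to those Atg8 proteins. In neurons, which do not divide, autophagy is known for clearing protein aggregates and worn organelles. A transcript level is not a measure of how much autophagy takes place.

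Of the 39 autophagy genes, 3 were higher and 0 lower in lactating mice by limma on log2(intensity + 16), at an unadjusted p under 0.05. These were the starting kinase Ulk1, the Atg8 protease Atg4b and Map1lc3b, the LC3B member of the Atg8 family. The 3 genes are 7.69% of the list, where 3.86% of all genes were higher and 4.83% were lower by the same rule. Among genes whose cluster was brighter than the median cluster, where 38 of the 39 autophagy genes lie, 5.88% were higher and 1.8% lower. The share of the autophagy genes was near that of the bright genes. With each array's median subtracted, 6.8% of all genes were higher and 2.76% lower, so the balance over all genes depended on the scaling. None of the 39 had an unadjusted p under 0.0025, which 0.306% of all genes had, and after adjustment over all 35556 clusters their lowest p was 0.619. At an adjusted p under 0.05 limma called 0 of the 39 and 0 of all 19938 genes.

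The differences were small in every gene. The log2 difference, lactating minus virgin, ran from −0.08 for Atg9b to 0.12 for Ulk1, with a median of 0.03, and it was above 0 in 31 of the 39 genes. Over all genes 47.9% were above 0 with a median of −0.00, and over the brighter genes 67.5% were, with a median of 0.02. The 95% interval of all 39 differences lay within a 1.2-fold change in either direction. Its largest upper limit was 1.17-fold, for Ulk1, and its smallest lower limit was 0.881-fold, for Atg9b. The standard deviation within groups on the log2 scale had a median of 0.07 over the autophagy genes and of 0.08 over the brighter genes. It was lowest for Map1lc3b at 0.029 and highest for Atg4a at 0.13.

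**Figure D1:**
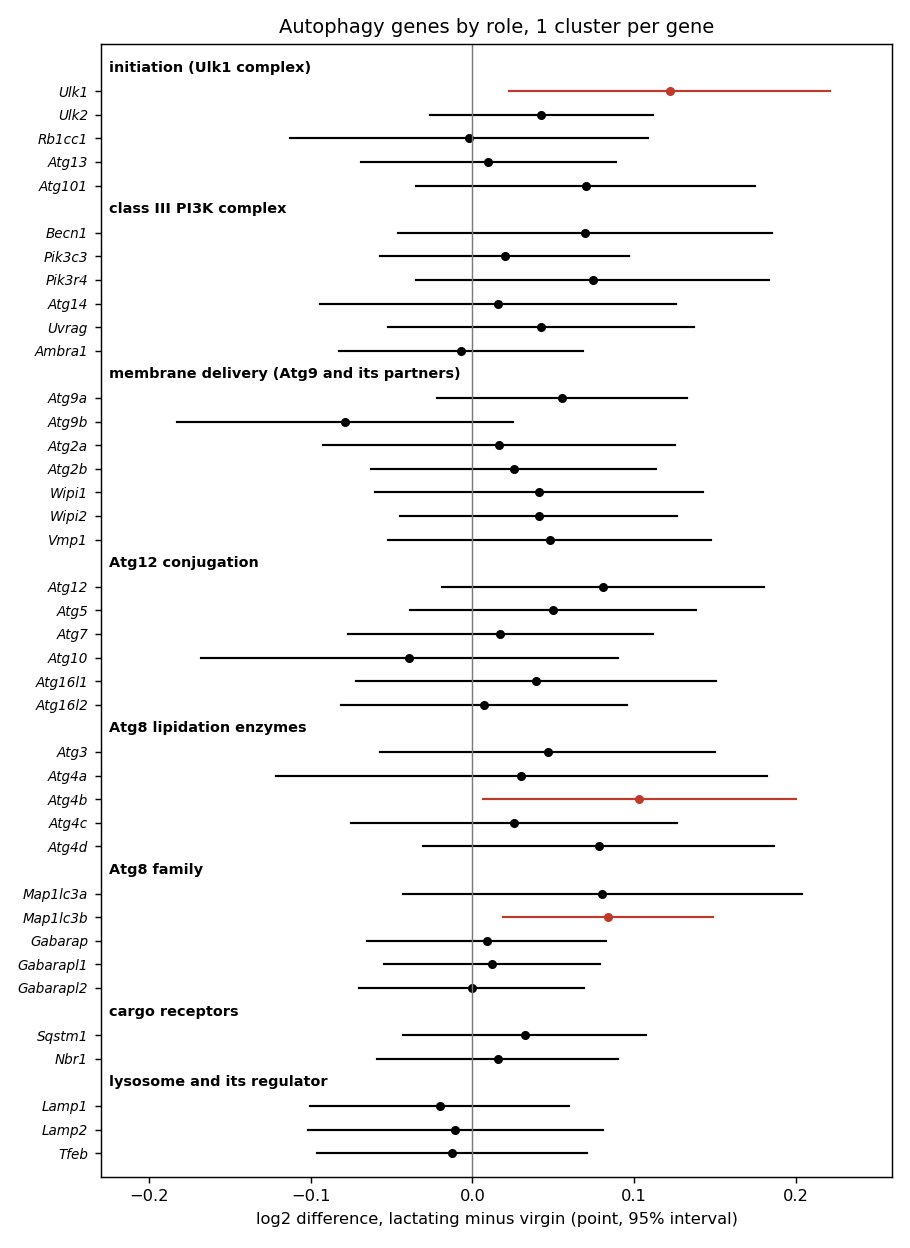
Log2 difference of intensity + 16, lactating minus virgin (horizontal axis), of the 39 autophagy genes in order of their role (vertical axis), with the point estimate and 95% interval from limma over 6 mice per group, in red where the unadjusted p is under 0.05. The intervals of Ulk1, Atg4b and Map1lc3b lie above 0 and those of the other 36 genes hold 0.

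Promoters of the genes with an unadjusted p under 0.05 are shown beside that of Lamp1, which held the most copies of the motif among the autophagy genes. The motif CACGTG reads the same on both strands and is the core of the element that the lysosomal regulator Tfeb binds. RefSeq windows of 300 bases on GRCm38.p6, 250 before and 50 after the start, were matched for 33 of the 39 genes. CACGTG was in the windows of 5 of the 33 genes, 15.2%, namely Atg14, Atg5, Atg7, Atg3 and Lamp1, against 8.09% of all 27025 genes with a window. A match describes letters and is not a measured binding site, and all 5 genes that held it had an unadjusted p above 0.05. The 250 bases before each start are printed 5′ to 3′ on the gene's strand, with CACGTG in capitals.
Map1lc3b, chr8:121590188-121590437, plus strand: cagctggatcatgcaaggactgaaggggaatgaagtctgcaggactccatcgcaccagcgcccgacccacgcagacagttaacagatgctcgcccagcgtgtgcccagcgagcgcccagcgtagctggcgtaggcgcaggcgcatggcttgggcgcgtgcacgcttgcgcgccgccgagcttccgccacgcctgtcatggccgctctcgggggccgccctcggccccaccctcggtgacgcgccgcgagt
Ulk1, chr5:110810082-110810331, minus strand: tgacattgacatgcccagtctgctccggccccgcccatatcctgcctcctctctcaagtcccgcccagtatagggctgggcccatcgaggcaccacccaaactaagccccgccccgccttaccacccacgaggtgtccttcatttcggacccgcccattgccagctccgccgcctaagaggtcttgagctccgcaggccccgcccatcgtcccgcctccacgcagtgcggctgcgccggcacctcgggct
Atg4b, chr1:93754655-93754904, plus strand: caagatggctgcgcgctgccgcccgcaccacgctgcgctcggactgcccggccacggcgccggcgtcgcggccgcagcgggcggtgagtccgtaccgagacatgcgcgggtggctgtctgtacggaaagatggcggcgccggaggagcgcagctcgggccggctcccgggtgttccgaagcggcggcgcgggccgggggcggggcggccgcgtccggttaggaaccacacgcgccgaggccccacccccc
Lamp1, chr8:13158911-13159160, plus strand: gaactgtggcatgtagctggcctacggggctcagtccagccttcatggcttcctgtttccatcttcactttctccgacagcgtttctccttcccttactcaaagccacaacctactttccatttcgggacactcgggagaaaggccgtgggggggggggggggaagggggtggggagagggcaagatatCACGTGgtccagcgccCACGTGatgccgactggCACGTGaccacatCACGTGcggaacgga

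Of the 5 genes of the kinase complex that starts autophagosome formation, 4 had a difference above 0. Ulk1, the kinase at its head (cluster 10532472), had intensities of 1022 to 1186 in lactating mice, with a median of 1080.5. In virgin mice Ulk1 ran from 905 to 1046 with a median of 1016. The groups overlapped through lactating mouse 2, and the other 5 lactating mice were above every virgin mouse. Ulk1 averaged 1092 ± 55.1 (SD, n = 6) against 1002 ± 53.1 (SD, n = 6), a log2 difference of 0.12 with a standard error of 0.046. The unadjusted p from limma was 0.0200, the adjusted p 0.619, and the exact two-sided permutation test over the 924 assignments of the mice gave p = 0.0108. Its relative Ulk2 went from 1794 to 1909 (median 1817) in lactating and from 1694 to 1830.0 (median 1784) in virgin mice. In Ulk2, 5 lactating mice lay inside the virgin range, and the log2 difference was 0.04 (limma unadjusted p = 0.204, exact permutation test p = 0.0476). Atg101, which stabilises the complex, spanned 393 to 446 (median 423) in lactating and 372 to 447 (median 394) in virgin mice, a log2 difference of 0.07 (limma unadjusted p = 0.172). No lactating mouse exceeded the highest virgin mouse for Atg101. The scaffold genes Rb1cc1 and Atg13 had differences of −0.00 and 0.01.

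**Figure D2:**
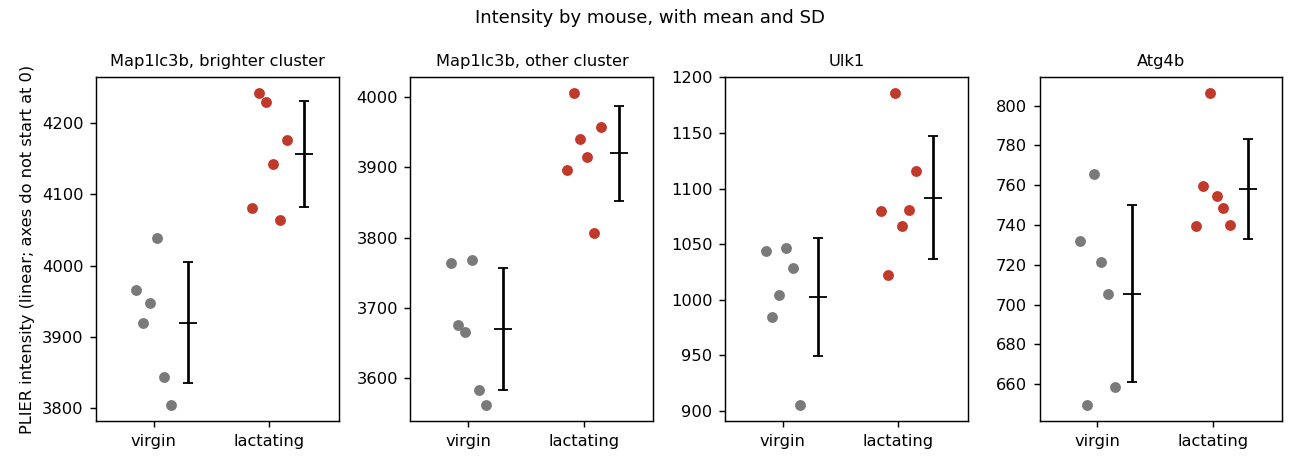
PLIER intensity on a linear scale (vertical axes, which do not start at 0) of both clusters of Map1lc3b, of Ulk1 and of Atg4b for the 6 virgin mice in grey and the 6 lactating mice in red. Points are single mice, and the bars to their right give mean and SD. The groups do not overlap for either cluster of Map1lc3b, while 1 lactating mouse for Ulk1 and 5 for Atg4b lie within the virgin range.

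In the class III phosphatidylinositol 3-kinase complex no gene of 6 passed an unadjusted p of 0.05, and 5 had a difference above 0. Pik3r4, the regulatory subunit, ran from 812 to 944 with a median of 881 in lactating mice and from 737 to 887 with a median of 850.2 in virgin mice. The difference of Pik3r4 was 0.07 on the log2 scale, standard error 0.051 (limma unadjusted p = 0.164). Becn1, the scaffold beclin 1, ran from 1465 to 1635 with a median of 1529.5 in lactating mice and from 1268 to 1557 with a median of 1523 in virgin mice. The lowest virgin value of both genes was in virgin mouse 2, and 2 lactating mice exceeded every virgin mouse in each. Without virgin mouse 2 the difference of Becn1 was 0.03 in place of 0.07, and that of Pik3r4 was 0.04. The catalytic subunit gene Pik3c3, the targeting subunits Atg14 and Uvrag, and Ambra1, a partner of beclin 1, were between −0.01 and 0.04.

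Of the 7 genes that deliver membrane and lipid to the growing autophagosome, 6 had a difference above 0 and none had an unadjusted p under 0.05. Atg9a, a lipid scramblase carried on vesicles, had 1367 to 1524 in lactating mice (median 1509.7) and 1389 to 1461 in virgin mice (median 1424). In all, 4 of the 6 lactating mice were above every virgin mouse, and lactating mouse 1 was below all of them. Its log2 difference was 0.06 (limma unadjusted p = 0.144, exact permutation test p = 0.0736), and without lactating mouse 1 it was 0.08 with an unadjusted p of 0.0307 from limma. The second gene of the kind, Atg9b, differed in the other direction by −0.08 (limma unadjusted p = 0.126). Its intensity was 270.2 to 324 (median 301) in lactating and 299.99 to 336 (median 323) in virgin mice, and it is the 1 autophagy gene whose cluster was dimmer than the median cluster. The lipid transfer genes Atg2a and Atg2b, the phosphoinositide readers Wipi1 and Wipi2, and Vmp1, a scramblase of the endoplasmic reticulum, had differences of 0.02 to 0.05.

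The Atg12 conjugation system joins Atg12 to Atg5 and, with Atg16l1, places the Atg8 proteins on the membrane. Atg12 ran from 1687 to 2029 with a median of 1792 in lactating mice and from 1629 to 1838 with a median of 1705 in virgin mice. Its highest value was in lactating mouse 1, the 1 lactating mouse above every virgin mouse. The log2 difference of Atg12 was 0.08 (limma unadjusted p = 0.104), and 0.05 without that mouse. Atg5 ran from 519 to 579.7 (median 546) in lactating and from 508 to 556 (median 526) in virgin mice, with 3 lactating mice above the virgin range and a difference of 0.05 (limma unadjusted p = 0.243). Atg7, the activating enzyme of both systems, had a difference of 0.02, Atg16l1 and Atg16l2 had 0.04 and 0.01, and Atg10, the conjugating enzyme of Atg12, had −0.04.

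All 5 genes for enzymes that cut and lipidate the Atg8 proteins had a difference above 0, and Atg4b had an unadjusted p under 0.05. Atg4b, a protease that exposes the end by which Atg8 proteins are joined to lipid (cluster 10348866), had 739 to 806 in lactating mice, with a median of 751. In virgin mice it had 649 to 766, with a median of 713. The highest virgin mouse exceeded 5 of the 6 lactating mice, so the groups overlapped, while 5 virgin mice lay below the lowest lactating mouse. The means were 758 ± 25.0 (SD, n = 6) and 705 ± 44.5 (SD, n = 6), a log2 difference of 0.10 with a standard error of 0.045 (limma unadjusted p = 0.0381, adjusted p = 0.623, exact permutation test p = 0.0260). The unadjusted p of Atg4b was 0.0502 to 0.0875 when lactating mouse 2, 3, 4 or 5 or virgin mouse 2, 5 or 6 was left out. Its relative Atg4d spanned 436 to 540.3 (median 471) in lactating and 426 to 474 (median 456) in virgin mice, with a difference of 0.08 (limma unadjusted p = 0.143) that was 0.04 without lactating mouse 3. Atg3, the enzyme that hands Atg8 proteins to lipid, and the proteases Atg4a and Atg4c had differences of 0.05, 0.03 and 0.03.

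Map1lc3b was the 1 autophagy gene whose lactating and virgin mice did not overlap, where 0.251% of all genes and 0.41% of the brighter genes were separated in that direction. In the other direction 0 autophagy genes were separated, against 0.201% of all genes and 0.0872% of the brighter genes. Its brighter cluster (10576056) had 4064 to 4242 in lactating mice, with a median of 4159.6, and 3804 to 4038 in virgin mice, with a median of 3934. The averages were 4156 ± 74.2 (SD, n = 6) and 3920.2 ± 84.9 (SD, n = 6), which is 6.02% higher. On the log2 scale the difference was 0.08, standard error 0.030 (limma unadjusted p = 0.0153, adjusted p = 0.619). The exact permutation test gave p = 0.00216, the smallest that 6 mice against 6 allow.

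The other cluster of Map1lc3b (10419354) was also separated. It had 3807 to 4006 in lactating mice, with a median of 3928, and 3561 to 3768 in virgin mice, with a median of 3671. Its log2 difference was 0.10 (limma unadjusted p = 0.00805, exact permutation test p = 0.00216). The annotation assigns both clusters to the same transcript, and whether they share probes was not tested, so they are not counted as separate evidence. On linear intensities the unadjusted p from limma was 0.000209 for the brighter cluster and 0.000102 for the other, both under 0.0025. The study selected Map1lc3b on these arrays, so its values here are not independent evidence of a difference.

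The other Atg8 genes did not separate the groups. Map1lc3a, the LC3A gene, ran from 1114 to 1397 (median 1193) in lactating and from 1061 to 1236 (median 1135) in virgin mice, with lactating mouse 3 alone above the virgin range. Its difference was 0.08 (limma unadjusted p = 0.182) and 0.04 without that mouse. Gabarap, Gabarapl1 and Gabarapl2, of the other branch of the family, had differences of 0.01, 0.01 and −0.00. Their 95% intervals ran from 0.952-fold, for Gabarapl2, to 1.06-fold, for Gabarap. Whether Map1lc3b differed from these genes in its response was not tested.

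Sqstm1, the receptor p62 that carries ubiquitin-tagged cargo, had 7322 to 7927 in lactating mice (median 7581) and 6946 to 7592 in virgin mice (median 7483). For Sqstm1, 3 lactating mice were above the virgin range, the lowest value was that of virgin mouse 2, and the difference was 0.03 (limma unadjusted p = 0.369). Nbr1, a related receptor, had 2165 to 2339.9 (median 2204) in lactating and 2109 to 2305 (median 2173) in virgin mice. Its groups overlapped except for lactating mouse 2, and the difference of 0.02 was −0.00 after quantile normalization.

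The 3 genes of the lysosome and its regulator were the 1 role in which no gene had a difference above 0. Lamp1, a protein of the lysosomal membrane, had 3179 to 3617 in lactating mice (median 3407) and 3383 to 3502 in virgin mice (median 3409.7). The lactating mice were spread to both sides, with 3 below every virgin mouse and 1 above every one, and the difference was −0.02 (limma unadjusted p = 0.597). Tfeb, the transcription factor of lysosomal and autophagy genes, had 457 to 498 (median 471) and 448 to 514 (median 476), a difference of −0.01. The second membrane protein gene, Lamp2, had −0.01. After subtraction of each array's median, Lamp1 was at 0.00 and Tfeb at 0.01, so the direction of both genes depended on the scaling.

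**Figure D3:**
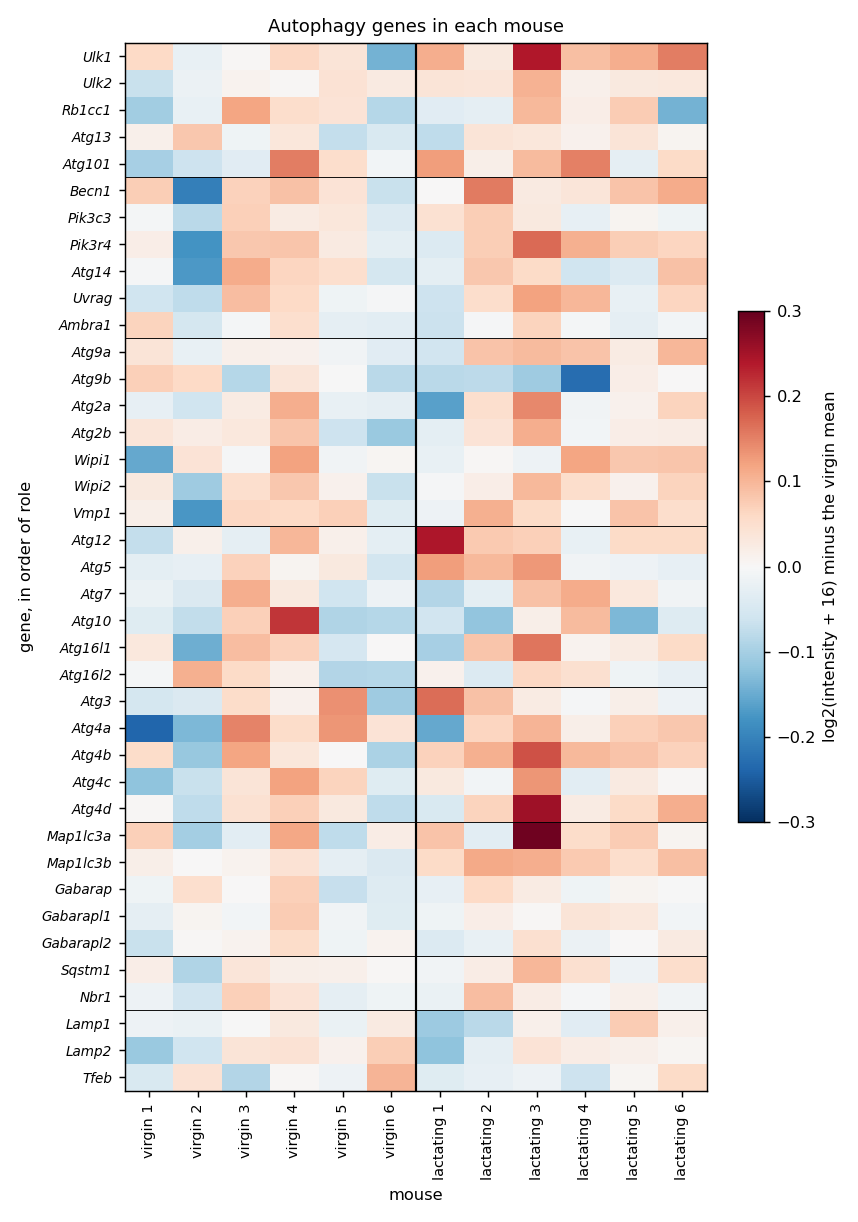
Log2(intensity + 16) of the 39 autophagy genes (vertical axis, in order of role) in each of the 12 mice (horizontal axis), as the difference from the mean of the 6 virgin mice, on a colour scale from −0.3 (blue) to 0.3 (red). Lactating mouse 3 is high for most genes and virgin mouse 2 is low for many, and the row of Map1lc3b is red in all 6 lactating mice.

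The arrays, 1 per mouse, differed in the mean level of the autophagy genes, within both groups. The mean log2 deviation of the 39 genes from their average over the 12 arrays ran from −0.03 in lactating mouse 1 to 0.07 in lactating mouse 3, with a median of 0.01. In virgin mice it ran from −0.06 in virgin mouse 2 to 0.05 in virgin mouse 4, with a median of −0.02. The groups overlapped. All genes above the median cluster, measured the same way, had their highest array in lactating mouse 3 at 0.03 and their lowest in virgin mouse 2 at −0.04. The same mice were thus the highest and the lowest for the autophagy genes and for bright genes in general. Over all genes, dim ones included, the order was reversed, with lactating mouse 3 lowest at −0.027 and virgin mouse 2 highest at 0.024. Whether this came from the mice or from the scaling of the arrays was not tested.

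**Figure D4:**
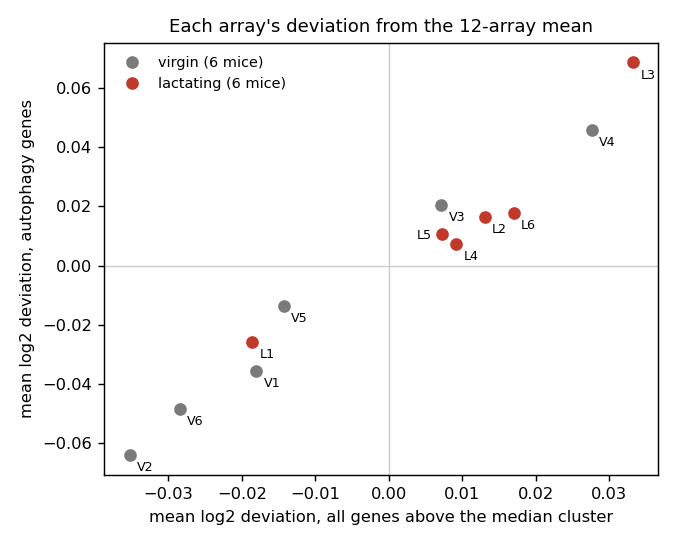
Mean log2 deviation of the 39 autophagy genes from their average over the 12 arrays (vertical axis) against that of all genes above the median cluster (horizontal axis), 1 point per mouse, with 6 virgin mice (V, grey) and 6 lactating mice (L, red). Lactating mouse 3 lies highest and virgin mouse 2 lowest on both axes, and the groups overlap.

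Around these genes, 72 of 75 listed genes of the pathway were measured. At an unadjusted p under 0.05, 7 were higher and 1 was lower in lactating mice, which is 9.72% and 1.39% of the 72. Of all genes 3.86% were higher and 4.83% lower, and of the brighter genes 5.88% and 1.8%. A difference above 0 was found in 51 of the 72, or 70.8%, against 67.5% of the brighter genes, with a median of 0.03. Of 18 further autophagy factors, 4 were higher, which is 22.2%, and the counts of the separate lists are a description of few genes. The lists were written with earlier results of these data known, so their shares are no independent evidence about the pathway. The 4 include Eva1a. Eva1a, a membrane protein that promotes autophagy, had 518 to 605 in lactating mice (median 556) and 419.7 to 541 in virgin mice (median 448). In Eva1a, 5 of the 6 lactating mice exceeded every virgin mouse, and its log2 difference of 0.25 with a standard error of 0.062 was the largest of the 39 genes and these 72 (limma unadjusted p = 0.00139, adjusted p = 0.619, exact permutation test p = 0.00433). The study selected Eva1a on these arrays, under its older symbol Fam176a, so this is not independent evidence.

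Snap29, a fusion protein that joins autophagosome and lysosome, had 897 to 964 (median 921) in lactating and 807 to 901 (median 877) in virgin mice, a difference of 0.09. Plekhm1, an adaptor of the same fusion step, had 696 to 787 (median 725) and 653 to 715 (median 690.5), a difference of 0.09. In each of Snap29 and Plekhm1, 4 lactating mice were above the virgin range. Nrbf2, a subunit of the beclin 1 complex that was on the list but is singled out here after its value was seen, had a difference of 0.09 (limma unadjusted p = 0.0419). Its call held in 11 of 23 alternatives, and 2 of its 3 clusters held identical values. The remaining cluster of Nrbf2 had a difference of 0.08 (limma unadjusted p = 0.0786). Tmem41b, a scramblase that works with Vmp1, had a brighter cluster with overlapping groups (0.09, limma unadjusted p = 0.174) and another in which all 6 lactating mice were above every virgin mouse (0.19, limma unadjusted p = 0.00239). The study selected Tmem41b on these arrays too.

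Signalling by mTORC1 and AMPK holds the Ulk1 complex off or turns it on according to nutrients. Of 16 genes of this signalling, 3 were higher, which is 18.8% of few genes, and 0 lower. Of all genes 3.86% were higher and 4.83% lower, and of the brighter genes 5.88% and 1.8%. The 3 higher genes were Ddit4, Sesn1 and Akt1s1, each known to restrain mTORC1. Other genes of the list with that role, Tsc1, Tsc2, Sesn2, Sesn3 and Deptor, had differences of 0.07, 0.05, 0.03, −0.01 and −0.03 and unadjusted p-values of 0.127 to 0.850 from limma. The AMPK subunit genes Prkaa1, Prkaa2, Prkab1 and Prkag1 had differences of −0.02, 0.01, −0.09 and 0.03 (limma unadjusted p = 0.200 to 0.790). Ddit4 had 421 to 486 (median 448) in lactating and 383 to 439 (median 415) in virgin mice, a difference of 0.12 with 4 lactating mice above the virgin range. Sesn1 had 1488 to 1751 (median 1608) and 1416 to 1552 (median 1494), a difference of 0.10, also with 4 above. Akt1s1 had 719 to 754 (median 746) and 664 to 741 (median 696), a difference of 0.08 with 5 above. The unadjusted p-values of Ddit4, Sesn1 and Akt1s1 from limma were 0.0262, 0.0373 and 0.0387, and the adjusted p-values were 0.619 to 0.623. After quantile normalization or cyclic loess only Ddit4 of them kept an unadjusted p under 0.05, and with the replicate block none did.

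Of 17 genes of lysosomal hydrolases, membrane proteins and the proton pump, 1 was lower, which is 5.88%, and 0 higher. Of all genes 4.83% were lower, and of the brighter genes 1.8%. The lower gene was Cd63, a tetraspanin of late endosomes and lysosomes. It had 613 to 759 (median 696) in lactating and 709 to 863 (median 764) in virgin mice, a log2 difference of −0.15 with 4 lactating mice below every virgin mouse (limma unadjusted p = 0.0290, exact permutation test p = 0.0519). None of 13 further cargo receptors and none of 8 transcription factors of the pathway had an unadjusted p under 0.05 in the main comparison. Eva1a kept an unadjusted p under 0.05 in all 23 alternatives, Ddit4 in 19, Cd63 in 17, Snap29 in 16, Sesn1 in 12 and Plekhm1 and Akt1s1 in 11 each. The unadjusted p from limma passed 0.05 for Ddit4 without lactating mouse 1 or virgin mouse 1 or 2 (0.0577 to 0.0636), and for Cd63 without lactating mouse 1 or 2 or virgin mouse 4, 5 or 6 (0.0528 to 0.0701). It did so for Snap29 without lactating mouse 1 or 3 or virgin mouse 1 or 6 (0.0532 to 0.0702), and for Sesn1 without lactating mouse 1, 2, 3 or 5 or virgin mouse 1, 2 or 6 (0.0555 to 0.0908). For Plekhm1 the mice were lactating 1, 3 and 6 and virgin 2 to 6 (0.0509 to 0.0918), and for Akt1s1 lactating 1, 2, 4, 5 and 6 and virgin 2, 3, 5 and 6 (0.0558 to 0.0882). For Nrbf2 they were lactating 2, 3, 4 and 6 and virgin 1, 2, 4, 5 and 6 (0.0525 to 0.0960), and its call was also lost after quantile normalization (0.0940), cyclic loess (0.0987) and with the mean of its clusters (0.0514).

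**Figure D5:**
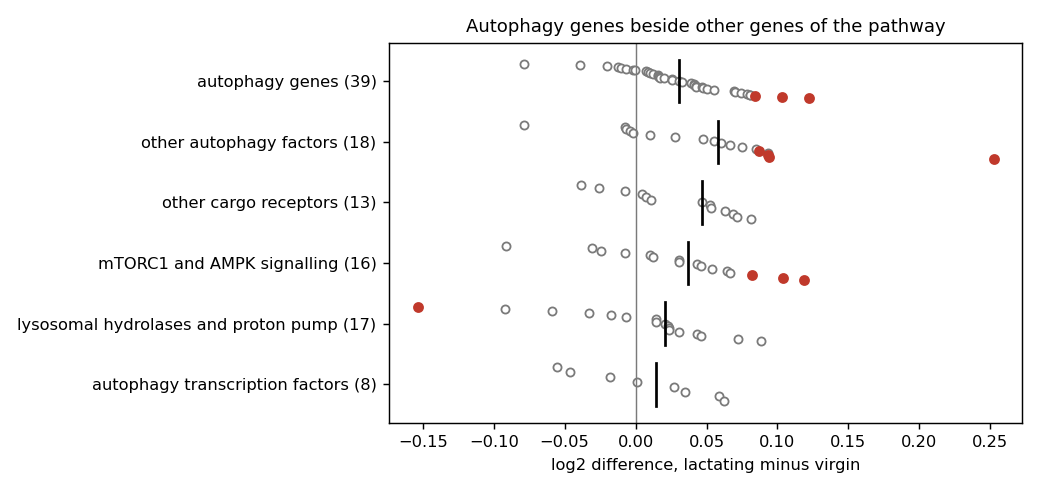
Log2 difference, lactating minus virgin (horizontal axis), of the 39 autophagy genes and of 72 other genes of the pathway in 5 lists (vertical axis, number of genes in brackets), 1 point per gene, filled red where the unadjusted p from limma is under 0.05, with a black line at each list's median. Most points lie between −0.1 and 0.1, and Eva1a stands at 0.25.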

How the data were processed

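RNA of the septum of 12 mice, 1 array each, was hybridised to Affymetrix mouse gene arrays. The authors summarised probes into transcript clusters and normalized them with PLIER in Affymetrix Power Tools 1.12.0, and the deposited values are intensities on a linear scale. The array's genome build is not given in the sources used here, so no cluster positions are printed. For this report, 16 was added, log2 was taken, and the groups were compared with lmFit and eBayes of limma 3.58.1 in R 4.3.3, two-sided, over all 35556 clusters without a filter, with Benjamini-Hochberg adjustment over all of them. The added value compresses dim clusters, 496 of which had a mean under 16. Single genes were also tested by exact permutation of the mice. Members, roles, lists and alternatives were chosen with earlier results of these data known. Values by mouse are given for Map1lc3b, for members with an unadjusted p under 0.05, for the 2 members of each role with the smallest p, and for up to 3 genes of each pathway list with an unadjusted p under 0.05. No p was computed for a list. The study's methods state that RNA extraction was paired between the groups, and the labels do not say which mice were paired, so the main comparison has no block. The alternatives were linear intensities, 1 added, quantile normalization, array medians subtracted, cyclic loess, bright clusters, clusters with 1 symbol, a variance trend, array weights, a replicate block, the mean of a gene's clusters, and each mouse left out. The code was tested on simulated data. The number of arrays limits the precision. Each sample is 1 mouse.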

Additional observations from a re-analysis of the deposited data

Results flagged for a closer look

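In a group of 6 mice, a value was noted when its gap to the next mouse was above the 95% limit of Dixon's test for 6 values. Of 86 groups tested for the 43 clusters, 7 were noted, where chance gives about 1 in 20. Lactating mouse 3 was high for 3 genes, Ulk2 at 1909, Atg4b at 806 and Map1lc3a at 1397. Lactating mouse 1 was low for Atg13 at 2252 and for Atg4a at 363.8. Lactating mouse 2 was high for Nbr1 at 2339.9, and virgin mouse 2 was low for Sqstm1 at 6946.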

How the results depend on the processing

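Map1lc3b and Ulk1 were higher at an unadjusted p under 0.05 in all 23 alternatives, and the brighter cluster of Map1lc3b had an unadjusted p under 0.0025 only on linear intensities. The other cluster had one there and with the variance trend (0.00164). The number of autophagy genes higher was 3 or 4 in the alternatives that kept all mice and 2 to 5 when 1 mouse was left out, with 5 without virgin mouse 4, where Atg101 and Atg12 joined, and 2 without each of the mice named for Atg4b. The number lower was 0 throughout. With 31 of the 39 autophagy genes above 0, the count was 25 after cyclic loess, 27 after quantile normalization and 37 with array medians subtracted, where 59% of all genes were above 0, and 29 to 35 when 1 mouse was left out. The share of all genes higher and lower was 5.92% and 3.74% on linear intensities, 6.8% and 2.76% with array medians subtracted, and 3.81% and 3.39% after quantile normalization. After cyclic loess it was 3.92% and 3.25%, and with the replicate block 3.37% and 5.75%. When 1 mouse was left out, the share higher ran from 2.39% without lactating mouse 3 to 5.83% without virgin mouse 4. The share lower then ran from 2.86% without virgin mouse 2 to 7.41% without virgin mouse 3.

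Of the other genes of the pathway, 11 were higher on linear intensities and 2 after quantile normalization, cyclic loess or with the replicate block. The number lower was 2 in these last 3 settings and 0 with array medians subtracted. Beside Cd63, the second lower gene was the transcription factor Tfe3 after quantile normalization and cyclic loess, and Prkab1 with the block. Of the cargo receptors, Ncoa4 and Sec62 were called on linear intensities and Wdfy3 with array medians subtracted. Tax1bp1 was called without lactating mouse 6, and Sec62 without virgin mouse 3. Leaving out 1 mouse gave 2 to 6 higher, with 2 without virgin mouse 2 or virgin mouse 6, and 0 or 1 lower. The sign turned for Nbr1 after quantile normalization (−0.0031) and cyclic loess (−0.0045), for Lamp1 with array medians subtracted (0.0035), and for Tfeb with array medians subtracted (0.011) and without virgin mouse 6 (0.0077, where the mice left out in turn gave −0.030 to 0.0077). The cause was not tested.

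Same-numbered mice had residual correlations of −0.027 to 0.25, over 0.1 for 2 of 6 numbers, and 2 of 6 lactating mice were closest to their own number, so the numbers are not taken to pair the mice. With the replicate block, 3 autophagy genes were higher and 0 lower, and the unadjusted p of Map1lc3b from limma was 0.0436.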
